A study of Danio rerio with 39 samples.

Results

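The data described here are the transcriptomes of zebrafish embryos kept under gamma radiation at 5 mGy/h and of their own unirradiated controls. The 6 libraries labelled 5 mGy/h of irradiation batch I30 and the 6 labelled control of the same batch were taken by their labels, all 12 were kept, and they are 12 of the 39 libraries of the series. The series measured polyadenylated RNA at several dose rates, each dose rate with controls of its own batch. Every library came from a pool of entire embryos of the wild-type AB strain collected at the shield stage, and the exposed pools received continuous gamma rays from a caesium source (137Cs) from soon after fertilisation, while the control pools did not. No allele or transgene was involved, and an embryo pool is the replicate, so p-values measure the spread between these 12 pools. In RNA of a whole embryo, fewer cells of a type and less RNA per cell cannot be told apart.

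At the shield stage the embryo is gastrulating: cells move inward at the margin and form mesoderm and endoderm, while those left outside become neural and non-neural ectoderm. Nodal signals set the inner layers at the margin, BMP signals set ventral fates and are held back dorsally by the organizer, and Wnt, FGF and retinoic acid set posterior fates. Outside the germ layers lie the enveloping layer, an outer epithelium rich in keratins, and the yolk syncytial layer, which faces the yolk and secretes lipoproteins. Ionising radiation breaks DNA, which cells answer with repair, arrest or cell death.

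The libraries differed in size. Reads assigned to genes ranged from 20896629 to 45879001 in the exposed libraries and from 9845688 to 25507778 in the controls (two-sided exact permutation test on means, p = 0.0108, adjusted p = 0.0438 over 9 library measures). The 10 most abundant genes held 9.69% to 11.4% of the reads in exposed and 9.14% to 10.2% in control libraries, and the mitochondrial genome held 1.81% to 2.44% and 2.27% to 2.65% (adjusted p = 0.0438 for both, exact permutation test). Pairs without a gene made up 6.1% to 7.77% of the uniquely mapped pairs in exposed and 6.86% to 8.97% in control libraries (adjusted p = 0.0506, same test). Reads on the opposite strand made up 1.781% to 1.875% and 1.833% to 1.947% (adjusted p = 0.0438, same test). In a principal component analysis the first component held 22.3% and the second 19.7% of the variance. Control 4 stood apart on the second (-39.4). On the first, control 2 (-4.83) lay among the exposed libraries, and control 4 (-24) lay on the exposed side too, beyond exposed 3 (-22.0). No gene is targeted in this design, so the RNA holds no targeted gene as a check of the irradiation itself. Most markers of differentiated tissues were nearly absent, as the stage label implies. Of these markers 9 of 12 for blood, 8 of 11 for neurons and 7 of 11 for muscle stayed under 1 CPM (reads scaled to library size) in all 12 libraries. The highest of the others were LCP1 and CEBPA of the blood list (up to 722 and 85.0 CPM), tubb5 of the neuron list (81.1) and UNC45B of the muscle list (42.5). Of 48 hox genes none passed the filter on low counts, with at most 21 reads in any library.

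Radiation at 5 mGy/h was accompanied by small changes in many genes rather than large changes in a few. Of 32057 genes, 15015 had enough reads for a test. A gene counted as a DEG, short for differentially expressed gene, when it changed 1.5-fold or more and its p in edgeR's quasi-likelihood test, adjusted after Benjamini-Hochberg, was below 0.01. This held for 80 genes, 0.533% of those tested. Of these, 53 (0.353%) were higher and 27 (0.18%) lower after exposure. With adjusted p under 0.05 and no fold threshold, 1366 genes (9.1%) were called, 686 higher (4.57%) and 680 lower (4.53%). Calls that were higher made up 50.2% of the 1366, and 65.4% where all 4 batches entered one fit. The words rose and fell are used below for this second rule. The CPM of the 2 groups were fully apart for 467 genes (3.11%), 262 of them higher (1.74%) and 205 lower (1.37%) after exposure, and for 65 of the 80 DEG. The median log2 fold change of all genes was -0.05, and 43.3% of genes lay above 0. Direction went with abundance, read in quintiles of 3003 genes by expression. In the lowest quintile 38.1% lay above 0, with 18 genes that rose and 37 that fell. In the highest quintile 55.8% lay above 0, with 333 that rose and 218 that fell. The counts of lists of abundant genes below are therefore also to be read beside those of this quintile.

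These counts depended on single libraries. The number of genes at adjusted p under 0.05 was 602 without exposed 1, 2209 without exposed 2, 297 without exposed 3, 306 without exposed 4, 805 without exposed 5 and 1782 without exposed 6. It was 643 without control 1, 2428 without control 2, 297 without control 3, 1664 without control 4, 336 without control 5 and 501 without control 6. The corresponding numbers of DEG were 28, 187, 18, 12, 20 and 114 for the exposed libraries and 40, 250, 13, 48, 21 and 24 for the controls. Across the fit of all 12 libraries and the 12 fits that each left one out, 243 genes were called every time, 143 higher and 100 lower, and these include 79 of the 80 DEG. With all libraries thinned to the lowest total, 1364 genes were called in place of 1366, of which 1134 were the same genes.

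**Figure D1:**
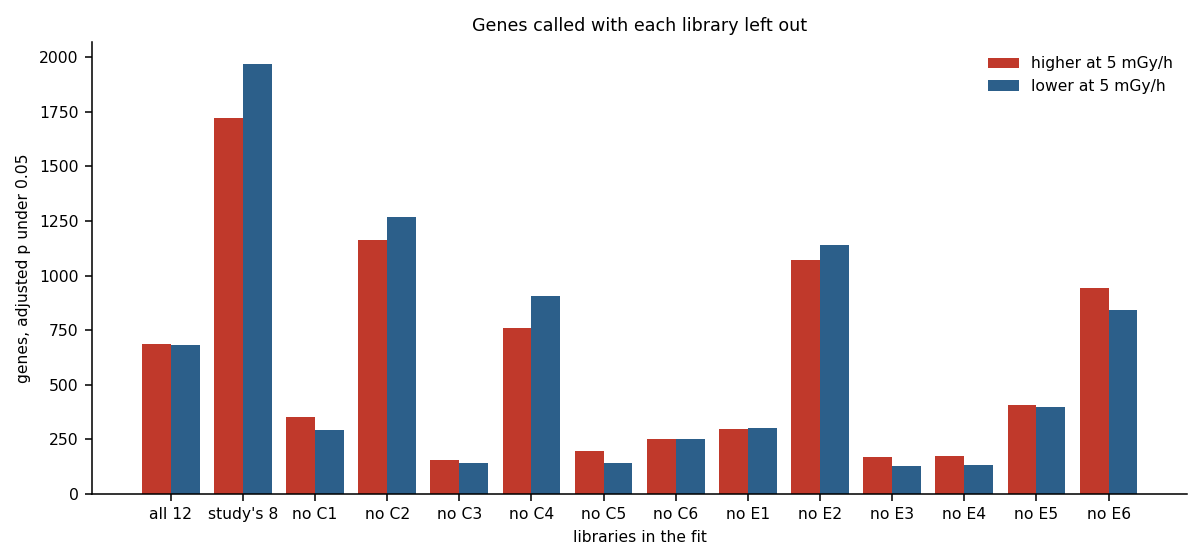
Number of genes at adjusted p under 0.05 (linear axis from 0), red bars for higher and blue for lower after exposure, with all 12 libraries, with the 8 that the study kept, and with each control (C) or exposed (E) library left out. Both bars together give 1366 with all 12, 297 without exposed 3 or control 3 and 2428 without control 2.

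Of the DEG with a symbol and no overlap between groups, the 12 with the highest and the 12 with the lowest fold change are named first. MDK (ENSDARG00000020708), which encodes the secreted heparin-binding growth factor midkine, had a lowest, median and highest CPM of 8.71, 11.4 and 13.1 in the 6 exposed libraries and of 2.51, 3.56 and 5.35 in the 6 controls. Every exposed library lay above every control, at a log2 fold change of 1.56 ± 0.16 (SE, adjusted p = 0.00028). DLX3, a homeobox gene of ventral ectoderm and of the border of the neural plate, ranged from 3.59 to 8.68 CPM (median 6.17) after exposure and from 1.64 to 3.21 (median 2.12) in controls. Its groups did not overlap either, and its log2 fold change was 1.47 ± 0.21. OTX2, a homeobox gene of the head, ranged from 13.7 to 19.3 CPM (median 17.8) against 6.78 to 9.63 (median 8.6), a log2 fold change of 1.01 ± 0.12. msx1a, a homeobox gene of the neural plate border, ranged from 3.89 to 6.13 CPM against 1.995 to 3.44, a log2 fold change of 0.997 ± 0.168. For tbx6, a T-box gene of paraxial mesoderm that Wnt signals induce, the range was 6.08 to 10.4 CPM against 3.54 to 5.04, a log2 fold change of 0.95 ± 0.16. DBX1, a homeobox gene of neural progenitors, rose by 1.02 ± 0.16 on the log2 scale. All 5 of these transcription factor genes kept their call (adjusted p under 0.05) whichever library was left out, as did 79 of the 80 DEG.

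Of the other genes named by that rule, SEMA3F, a secreted guidance cue, rose by 1.34 ± 0.24 on the log2 scale, and actc1a, an actin of cardiac type, by 1.27 ± 0.21. PCDH10 (ENSDARG00000102824), an adhesion molecule of the protocadherin family, rose by 1.096 ± 0.15. cndp1, a dipeptidase, rose by 1.09 ± 0.21, and ptpro, a receptor-type tyrosine phosphatase, by 0.95 ± 0.15. The most abundant of the group, tm6sf2a, whose human counterpart acts in lipoprotein secretion, ranged from 35.6 to 45.0 CPM (median 42.4) after exposure and from 16.2 to 26.6 (median 21.6) in controls. No exposed library overlapped a control for any of the 12, since that was part of the rule that chose them.

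Of the genes with the lowest fold changes, some stood below 2 CPM in most libraries. FGF4, a secreted growth factor, ranged from 0.386 to 0.772 CPM (median 0.567) after exposure and from 1.09 to 2.08 (median 1.53) in controls, a log2 fold change of -1.40 ± 0.25. SYCP1, a protein of the synaptonemal complex of meiosis, ranged from 0.451 to 0.772 CPM against 1.08 to 1.75, and fut9b.5, a fucosyltransferase, from 0.0858 to 0.293 against 0.451 to 0.987. Their log2 fold changes were -1.38 ± 0.24 and -1.88 ± 0.34, and fut9b.5 was the DEG that lost its call in 1 of the 12 fits with a library left out. The zinc finger gene znf1127 had a log2 fold change of -1.18 ± 0.22. At a higher level, sebox, a homeobox gene of mesendoderm, ranged from 20.4 to 36.2 CPM (median 27.5) against 43.8 to 76.8 (median 56.7), a log2 fold change of -1.07 ± 0.16 (adjusted p = 0.00214). Every control lay above every exposed library for each of these genes. inka1a, an inhibitor of the Pak4 kinase, had a log2 fold change of -0.73 ± 0.11 and mob1bb, an activator of the Lats kinases of the Hippo pathway, of -0.70 ± 0.13. UBLCP1, a phosphatase of the proteasome (-0.78 ± 0.15), NLRX1, a mitochondrial protein related to innate immune sensors (-0.68 ± 0.13), and cd99, a surface glycoprotein (-0.88 ± 0.15), fell as well. The clone-named genes si:dkey-68o6.5 and si:dkey-182g1.8, for which no role is given here, fell by 0.88 and 0.70 on the log2 scale.

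The lowest fold change of any DEG was outside that rule, because its groups overlapped. DYNLRB1, a light chain of the dynein motor, was chosen after its values were seen. It stood at 0.2145 to 1.056 CPM in the exposed libraries, at 0.7356 in control 1 and 0.8771 in control 2, and at 4.505 to 9.713 in controls 3 to 6, a log2 fold change of -2.96 ± 0.54. Controls 1 and 2 thus lay within the exposed range, and the other 4 controls far above it.

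**Figure D2:**
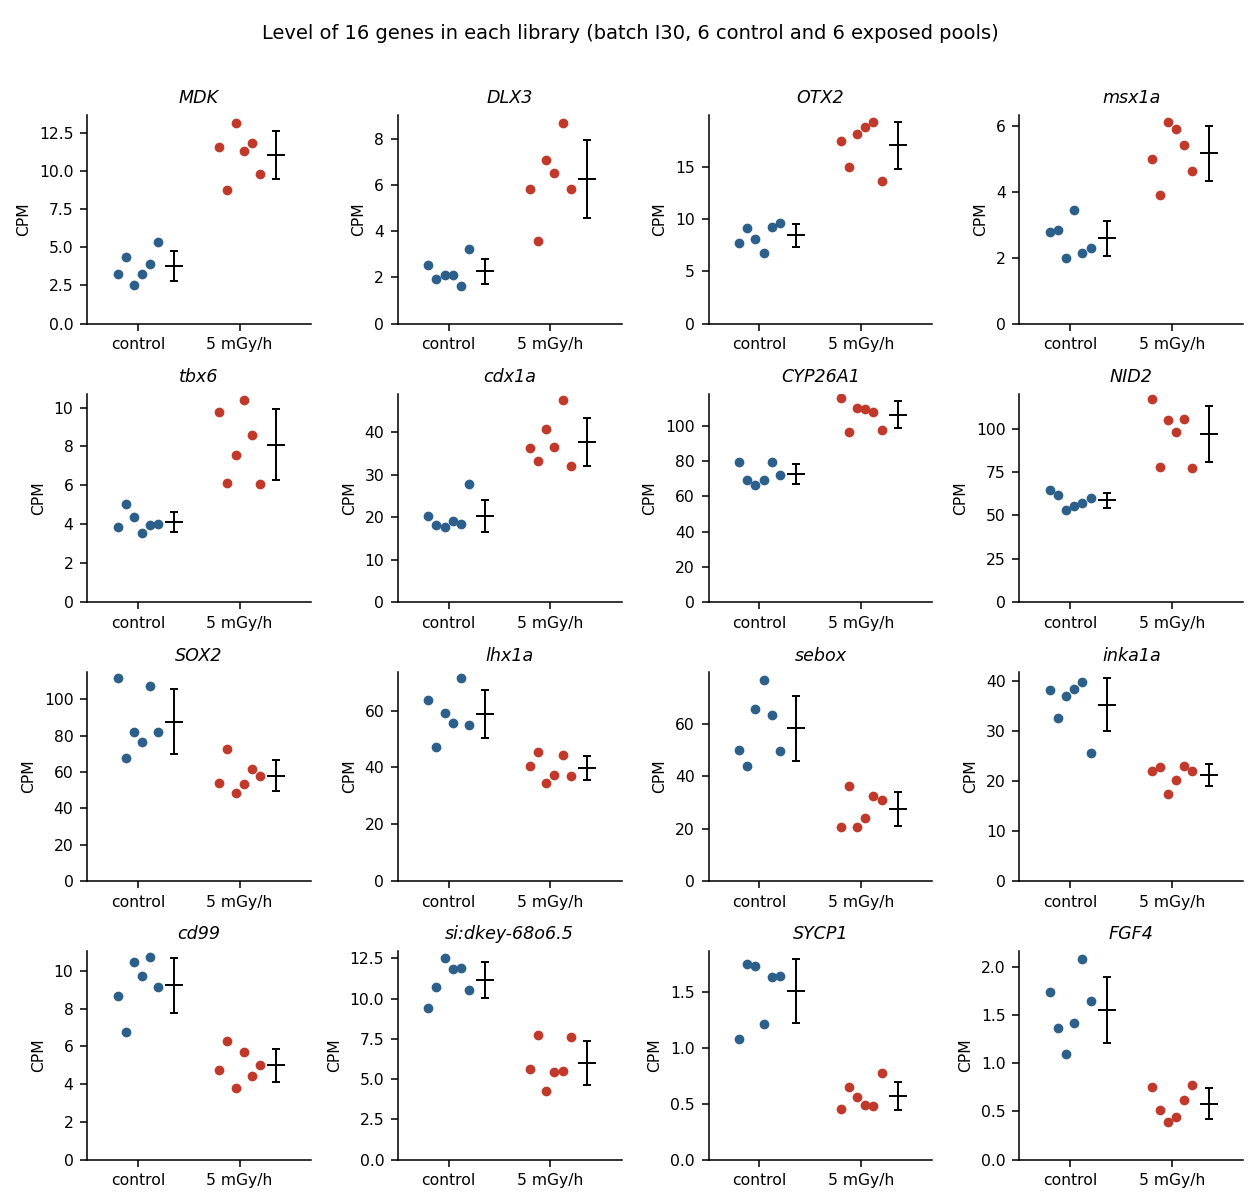
CPM of 16 genes in each of the 6 exposed and 6 control libraries (points), with the mean and SD of each group, each panel on its own linear axis. Exposed libraries lie above controls for MDK (8.71 to 13.1 against 2.51 to 5.35) and OTX2 (13.7 to 19.3 against 6.78 to 9.63) and below them for sebox (20.4 to 36.2 against 43.8 to 76.8).

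Gene lists for germ layers and tissues were read member by member, against 4.57% of all genes that rose and 4.53% that fell. Some genes stand in several lists of tissues and pathways, among them CYP26A1, cdx1a, tbx6, chrd, vent, mixl1 and GMNN, so counts of different lists are not independent. In non-neural ectoderm, 7 of 20 tested members rose and 1 fell, with a median log2 fold change of 0.22. Beside DLX3 and msx1a, foxi1, a forkhead gene of epidermis and ear precursors, rose from 62.2 to 78.0 CPM in controls to 79.2 to 118 after exposure, and msx1b rose by 0.39 ± 0.09 on the log2 scale. The member that fell, vent, a homeobox repressor of dorsal fates, ranged from 35.1 to 85.2 CPM after exposure and from 56.2 to 123 in controls, a log2 fold change of -0.82 ± 0.20 that lost its call in 5 of 12 fits with a library left out. The mean log2 level of the list ran from 5.41 to 5.67 in exposed libraries and from 5.20 to 5.40 in controls, so that the groups did not overlap. The count of members that rose ran from 3 without exposed 4 to 8 without exposed 6, and 3 were called in every fit.

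The neural lists were read by position along the body axis. In posterior neural ectoderm and trunk, 3 of 9 tested members rose, with a median of 0.49, and the library means did not overlap. cdx1a, a homeobox gene of trunk and tail, ranged from 32.1 to 47.5 CPM (median 36.3) after exposure and from 17.7 to 27.7 (median 18.7) in controls, a log2 fold change of 0.90 ± 0.12. MEIS1 and meis3, homeobox partners of hox proteins in the hindbrain, rose by 1.05 ± 0.27 and 0.59 ± 0.17, and kept their call in 7 and 4 of the 12 fits with a library left out. In anterior neural ectoderm 4 of 23 tested members rose and 3 fell, with a median of -0.12. OTX2 and TCF7L1, a repressor of Wnt targets in the head, rose. SOX2, a factor of neural and pluripotent cells, had 48.7 to 72.7 CPM after exposure against 67.5 to 112 in controls, a log2 fold change of -0.60 ± 0.12, and GMNN, the replication inhibitor geminin, which also maintains neural precursors, one of -0.62 ± 0.14. her5, a repressor of the midbrain-hindbrain boundary, fell by 0.56 on the log2 scale. The count that rose in this list ran from 1 without exposed 3 to 4, and that which fell from 2 to 5 without control 2.

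Of 30 tested members of ventrolateral and paraxial mesoderm 6 rose and 2 fell, with a median of 0.04. After tbx6, the members with the smallest p were tbx16l, a related T-box gene (log2 fold change 0.55 ± 0.10), CYP26A1, the enzyme that degrades retinoic acid, and aplnrb, a receptor that guides mesendoderm cells (0.52 ± 0.09). CYP26A1 ranged from 96.2 to 116 CPM after exposure and from 66.5 to 79.7 in controls, a gap free of overlap with a log2 fold change of 0.54 ± 0.08. Of the members that rose, 5 were called in every fit. In the list of the dorsal organizer and axial mesoderm, 2 of 16 rose and 2 fell. chrd, the BMP antagonist chordin, ranged from 385 to 594 CPM after exposure and from 284 to 366 in controls, while lhx1a, a LIM homeobox gene of the organizer, ranged from 34.7 to 45.4 against 47.1 to 71.7. Thus chrd (log2 fold change 0.56 ± 0.10) and lhx1a (-0.56 ± 0.10), both organizer genes, moved apart with no overlap in either. Of the landmark genes of axial mesoderm, chosen after their values were seen, noto had a log2 fold change of 0.09 (adjusted p = 0.559) and TBXT of -0.03 (adjusted p = 0.90).

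Of 13 tested members of the endoderm list 1 rose and 1 fell, with a median of -0.06. PRDM1, a zinc finger factor also known from the prechordal plate, ranged from 42.5 to 55.5 CPM against 26.3 to 37.9. mixl1, a homeobox gene of mesendoderm under Nodal control, ranged from 49.4 to 71.4 against 70.8 to 131. For mixl1 the highest exposed library just passed the lowest control, at a log2 fold change of -0.69 ± 0.12, beside 0.59 ± 0.10 for PRDM1, whose groups did not overlap. For sox32, the gene that commits cells to endoderm, named after its values were seen, the log2 fold change was -0.02 (adjusted p = 0.879).

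In the enveloping layer list 10 of 36 tested members rose and 1 fell, with a median of 0.13. cyt1l, a type I keratin, ranged from 129.4 to 234 CPM (median 157) after exposure and from 86.0 to 129.0 (median 97.7) in controls, and krt17 from 139 to 230 against 105 to 134. Their log2 fold changes were 0.69 ± 0.13 and 0.56 ± 0.11, and krt91 (0.69 ± 0.15) and cyt1 (0.47 ± 0.11) rose too. Among all genes with a keratin symbol, a family gathered after the values were seen, 9 of 14 rose, with a median of 0.41 and library means that did not overlap. For the enveloping layer list itself the library means did overlap, at 6.295 to 6.641 in exposed libraries and 6.212 to 6.398 in controls. The member of the list that fell was cdh1, E-cadherin, which all cells of the early embryo use (111 to 161 CPM against 138 to 260, log2 fold change -0.48 ± 0.14, called in 4 of 12 fits with a library left out). The count of members that rose ran from 3 without exposed 3 to 14 without control 2, and 3 were called in every fit.

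Of 17 tested members of the yolk syncytial layer list 3 rose and 2 fell, with a median of 0.19. apoa1b, an apolipoprotein of high-density particles, ranged from 107 to 178 CPM against 67.9 to 104, and its paralogue apoa1a from 9.26 to 17.8 against 5.26 to 11.2, with a call that apoa1a kept in 6 of 12 fits with a library left out. tfa, transferrin, which carries iron, ranged from 59.2 to 74.4 CPM against 37.5 to 55.02, so that apoa1b and tfa had no overlap between groups. Their log2 fold changes were 0.66 ± 0.12 and 0.66 ± 0.10. mxtx1, a homeobox gene of this layer, ranged from 55.1 to 63.0 CPM against 60.9 to 88.8, a log2 fold change of -0.38 ± 0.09. The apolipoprotein paralogues can share reads, which the counting of unique alignments limits.

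Among 18 tested genes of primordial germ cells and germ plasm 1 fell: DDX4, the germ plasm helicase Vasa, ranged from 189 to 236 CPM against 230 to 304, a log2 fold change of -0.40 ± 0.09 kept in every fit. Of 42 maternal oocyte transcripts 1 rose, the importin KPNA2, and 1 fell, the egg coat protein zp3d.1, with a median of 0.03. Of 15 tested meiotic genes SYCP1 was the one called. No member of the neuron list was called, where 2 were tested (edgeR's quasi-likelihood test; 0 at an unadjusted p under 0.05 and 0 with DESeq2). In the muscle list actc1a rose and in the blood list LCP1, an actin bundler known from blood cells, rose by 0.46 ± 0.11 on the log2 scale.

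**Figure D3:**
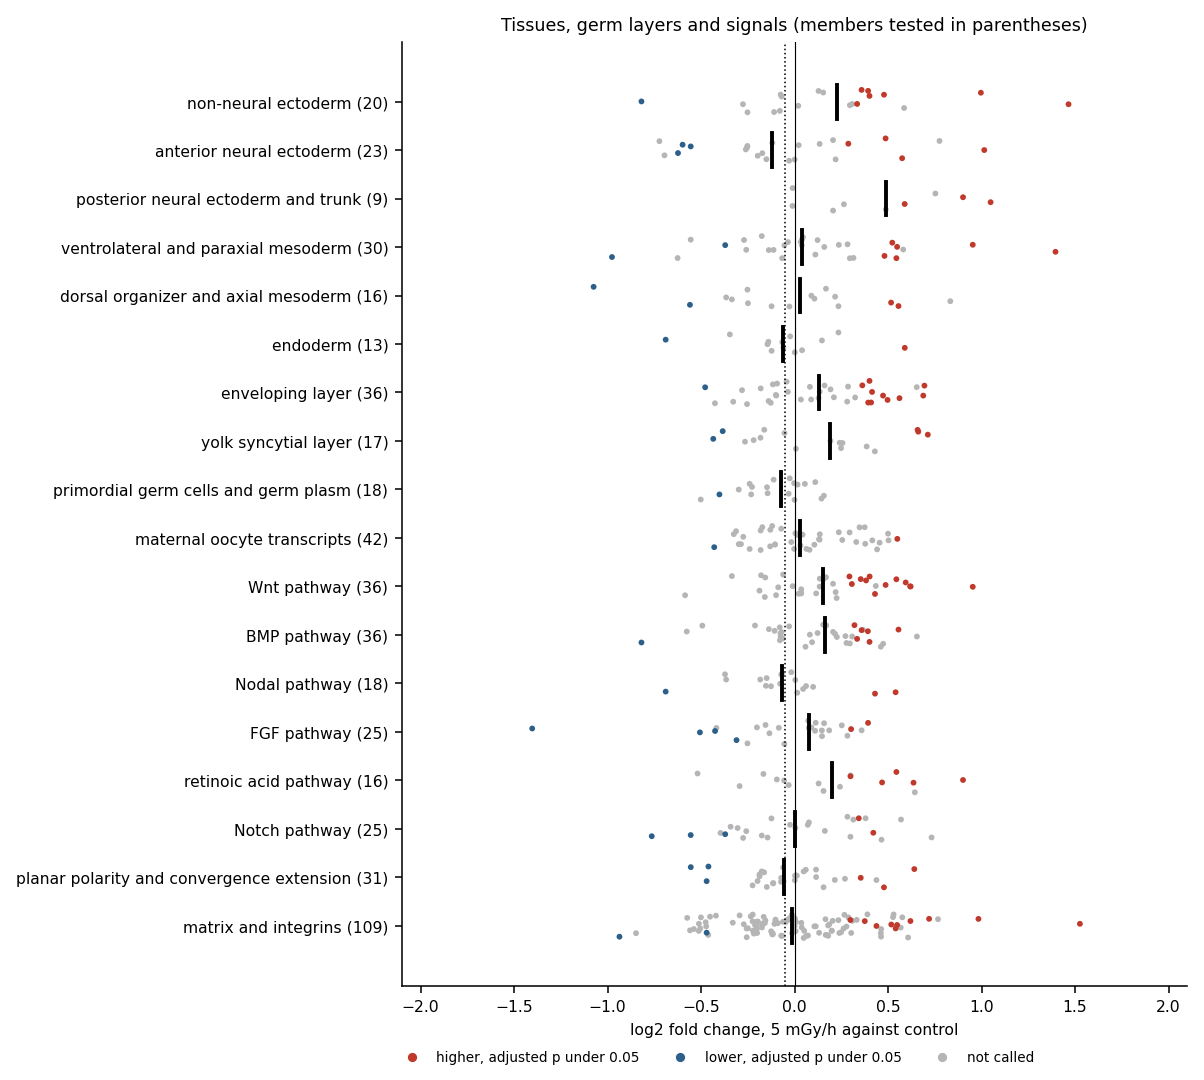
Log2 fold change of each tested member (points) of 18 lists of tissues, germ layers and signals, red where it rose, blue where it fell and grey where it was not called. Black bars mark list medians and the dotted line the median of all genes (-0.05): non-neural ectoderm sits at 0.22, posterior neural ectoderm and trunk at 0.49, and anterior neural ectoderm at -0.12.

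Among signalling pathways the Wnt list had the most members called. Of 36 tested members 12 rose (33.3%, against 4.57% of all genes), with a median of 0.15, and 5 of them were called in every fit. The receptors FZD2 and FZD7 rose by 0.59 ± 0.11 and 0.35 ± 0.07 on the log2 scale, FZD2 from 15.3 to 21.8 CPM in controls to 23.5 to 34.2 after exposure. The target tbx6 and the secreted inhibitor SFRP1 (67.4 to 81.3 CPM against 40.3 to 59.9, log2 fold change 0.62 ± 0.10) rose as well, so that receptors, a target and an inhibitor were all among the calls. The count of members that rose ran from 5 without exposed 3 to 12, and among all frizzled receptors, a family gathered after the values were seen, 4 of 10 rose.

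Called retinoic acid genes were all higher after exposure. Of 16 tested members 5 rose (31.25%, against 4.57% of all genes), with a median of 0.20: 4 were called in every fit, and the count ran from 4 to 7. Those named by the rule were the degrading enzyme CYP26A1, the target cdx1a, the carrier CRABP2 (810 to 1053 CPM against 583 to 722, log2 fold change 0.47 ± 0.08) and DHRS3, which turns retinal back into retinol (55.1 to 93.6 CPM against 39.9 to 57.6, 0.64 ± 0.12). CYP26A1 and DHRS3 both lower the amount of retinoic acid.

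BMP genes included an antagonist and a protease of that antagonist. Of 36 tested members 6 rose and 1 fell (16.7% and 2.78%, against 4.57% and 4.53% of all genes), with a median of 0.16. chrd rose, and so did BMP1, a protease of the family that cleaves chordin (log2 fold change 0.32 ± 0.08), and BAMBI, a decoy receptor (0.39 ± 0.10). BMP1 kept its call in 7 and BAMBI in 5 of the 12 fits with a library left out, and the count of members that rose ran from 1 without exposed 3 to 8.

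Of 25 tested members of the FGF list 2 rose and 4 fell (8% and 16%, against 4.57% and 4.53% of all genes), with a median of 0.08. FGF3 ranged from 11.1 to 16.2 CPM after exposure and from 17.0 to 21.4 in controls, a log2 fold change of -0.51 ± 0.11, beside the decrease of FGF4. FGFR1, a receptor, ranged from 91.4 to 119 CPM against 72.0 to 89.0 (0.39 ± 0.08), and IL17RD, the feedback inhibitor Sef, from 128 to 147 against 107 to 117 (0.30 ± 0.07). None of these 4 genes, named for the lowest adjusted p of the list, had overlapping groups. Over the list 6 of 25 tested members had no overlap, against 3.11% of all genes.

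In the Nodal list 2 of 18 tested members rose and 1 fell (11.1% and 5.56%, against 4.57% and 4.53% of all genes). The feedback inhibitors lft1 (58.4 to 73.3 CPM against 43.0 to 51.9) and lft2 rose by 0.43 ± 0.08 and 0.54 ± 0.13 on the log2 scale, and the target mixl1 fell. lft2 kept its call in 7 of 12 fits with a library left out. In the Notch list 2 of 25 tested members rose and 3 fell (8% and 12%). The receptor NOTCH1 (472 to 559 CPM against 389 to 436, log2 fold change 0.34 ± 0.07) and her8a rose, her8a with a call kept in 4 of 12 such fits. The ligand dlb (-0.76 ± 0.19) was among those that fell. Of 16 hedgehog genes 1 rose (6.25%), the ligand ihha (0.73 ± 0.21), which kept its call in 5 of 12 such fits. The hedgehog count that rose ran from 0 without exposed 3 to 2 without exposed 2. In the Hippo list 3 of 17 fell (17.65%), the kinases STK3 and LATS1 and their upstream activator nf2a, by 0.53, 0.50 and 0.59 on the log2 scale, with a median of -0.16. The Hippo count ran from 0 without exposed 4 to 5 without exposed 2.

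Matrix genes that rose included basement membrane components. Of 109 tested members of the matrix and integrin list 10 rose and 2 fell (9.17% and 1.8%, against 4.57% and 4.53% of all genes). In this list 52 members lay above 0 and 57 below, and the median of -0.01 was close to that of all genes. NID2, a nidogen that links laminin to collagen, ranged from 77.5 to 117 CPM (median 102) after exposure and from 53.2 to 64.5 (median 58.4) in controls, a log2 fold change of 0.72 ± 0.10. The related NID1 (ENSDARG00000103129) rose by 0.55 ± 0.08 and LAMB1, a laminin chain, by 0.52 ± 0.09 (509 to 671 CPM against 361 to 493). COL10A1, a short-chain collagen, rose by 0.62 ± 0.12. HAS2, which makes hyaluronan, fell by 0.47 on the log2 scale, and was called in 3 of 12 fits with a library left out. The count that rose ran from 4 without control 3 to 11. Fibronectin genes, with the symbol FN1, were not in the list and were chosen after their values were seen. ENSDARG00000006526 and ENSDARG00000019815 rose by 0.73 and 0.67 on the log2 scale and were called in every fit. In the list of planar polarity and convergence extension 3 of 31 tested members rose, among them the cadherin receptor CELSR2 (84.0 to 110 CPM against 54.5 to 70.7, 0.64 ± 0.09) and the Wnt receptor ROR2 (0.48 ± 0.10), and 3 fell, among them the kinase ROCK2 (-0.46 ± 0.11).

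Of the lists, that of cytosolic ribosomal proteins had the most members that rose. Of 81 tested cytosolic ribosomal protein genes 41 rose (50.6%, against 4.57% of all genes) and 40 were not called. A log2 fold change above 0 was seen for 77, and the median was 0.45. RPS9 ranged from 686 to 1452 CPM (median 865) after exposure and from 490 to 780 (median 522) in controls. RPL10A ranged from 525 to 997 CPM against 412 to 575, and rps3 from 710 to 1451 against 530 to 808. The largest increase was that of RPL21, by 0.91 ± 0.17. The small and the large subunit each had a median of 0.45. The mean log2 level of the list was 9.14, 8.38, 8.68, 8.63, 8.51 and 8.32 in exposed libraries 1 to 6 and 8.24, 8.56, 8.14, 8.21, 8.04 and 8.12 in controls 1 to 6. Control 2 lay within the exposed range, exposed 1 lay above all others, and the other 5 controls lay below every exposed library. The call count moved with single libraries, from 2 without control 3 to 64 without control 2, and 2 members were called in every fit, while the median stayed between 0.33 and 0.54. The share of the 10 most abundant genes and the total count of a library were also higher after exposure. The share of uniquely mapped pairs without a gene was lowest in exposed 1 (6.1%), lowest among controls in control 2 (6.86%) and highest in control 5 (8.97%). The part of these measures in this result was not tested. With libraries thinned to the lowest total 42 members rose, but thinning evens out totals and leaves the composition of a library as it was.

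Genes of oxidative phosphorylation were read in 3 lists, those of the nucleus for complex I and for complexes II to V, and those of the mitochondrial genome. Of 36 tested subunits of complex I, which takes electrons from NADH, 10 rose (27.8%, against 4.57% of all genes) and 35 lay above 0, with a median of 0.39. NDUFS7 ranged from 20.4 to 37.2 CPM against 14.1 to 22.9, and NDUFA6 from 19.4 to 38.8 against 13.8 to 24.3. Of 47 tested genes of complexes II to V, 18 rose (38.3%) and 1 fell (2.13%), with a median of 0.36. UQCRQ of complex III (0.60 ± 0.15), cox6a1 of cytochrome c oxidase (0.58 ± 0.14) and ATP5PF of the ATP synthase (0.53 ± 0.13) rose, and atp5if1b, which inhibits the synthase, fell (-0.75 ± 0.23). Of the 13 protein genes of the mitochondrial genome 2 lay above 0, MT-ND3 rose by 0.38 ± 0.09 and MT-CO2 fell, at 1625 to 2560 CPM against 2288 to 2918. The share of all reads on the mitochondrial genome, given above, was lower after exposure. The count for complex I ran from 0 without exposed 3 to 19 without control 2, that for complexes II to V from 0 without exposed 4 to 28 without control 2, and no member of either was called in every fit.

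Of 53 tested importins, exportins and nucleoporins 11 rose and 43 lay above 0, with a median of 0.18. KPNA2, an importin alpha abundant in eggs, ranged from 311 to 458 CPM (median 395) against 239 to 310 (median 250), a log2 fold change of 0.55 ± 0.10, and was the member called in every fit. KPNB1, the importin beta that carries it, rose by 0.43 ± 0.10, and the nucleoporins NUP133 and NUP188 by 0.50 ± 0.12 and 0.40 ± 0.10. The count that rose ran from 1 without exposed 3 to 17 without control 2. Of 53 tested proteasome genes 11 rose (20.75%) and 2 fell (3.77%), with a median of 0.16. PSMB6 and PSMA1 of the core rose by 0.52 ± 0.12 and 0.55 ± 0.13. PSMD11 of the regulator and PSME3, an activator of the core, fell by 0.48 and 0.47 on the log2 scale. In families gathered after the values were seen, 8 of 21 core genes (psma and psmb) rose and 0 fell, with a median of 0.28. Of the 32 psmc, psmd, psme, psmf and psmg genes 3 rose and 2 fell, with a median of 0.13. The proteasome count ran from 0 without exposed 3 to 21 without control 2. Of 100 tested ubiquitin enzymes 6 rose and 7 fell (6% and 7%, against 4.57% and 4.53% of all genes), with a median of -0.05. Of 44 autophagy and lysosome genes 4 rose and 4 fell (9.09% each), with a median of 0.02.

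**Figure D4:**
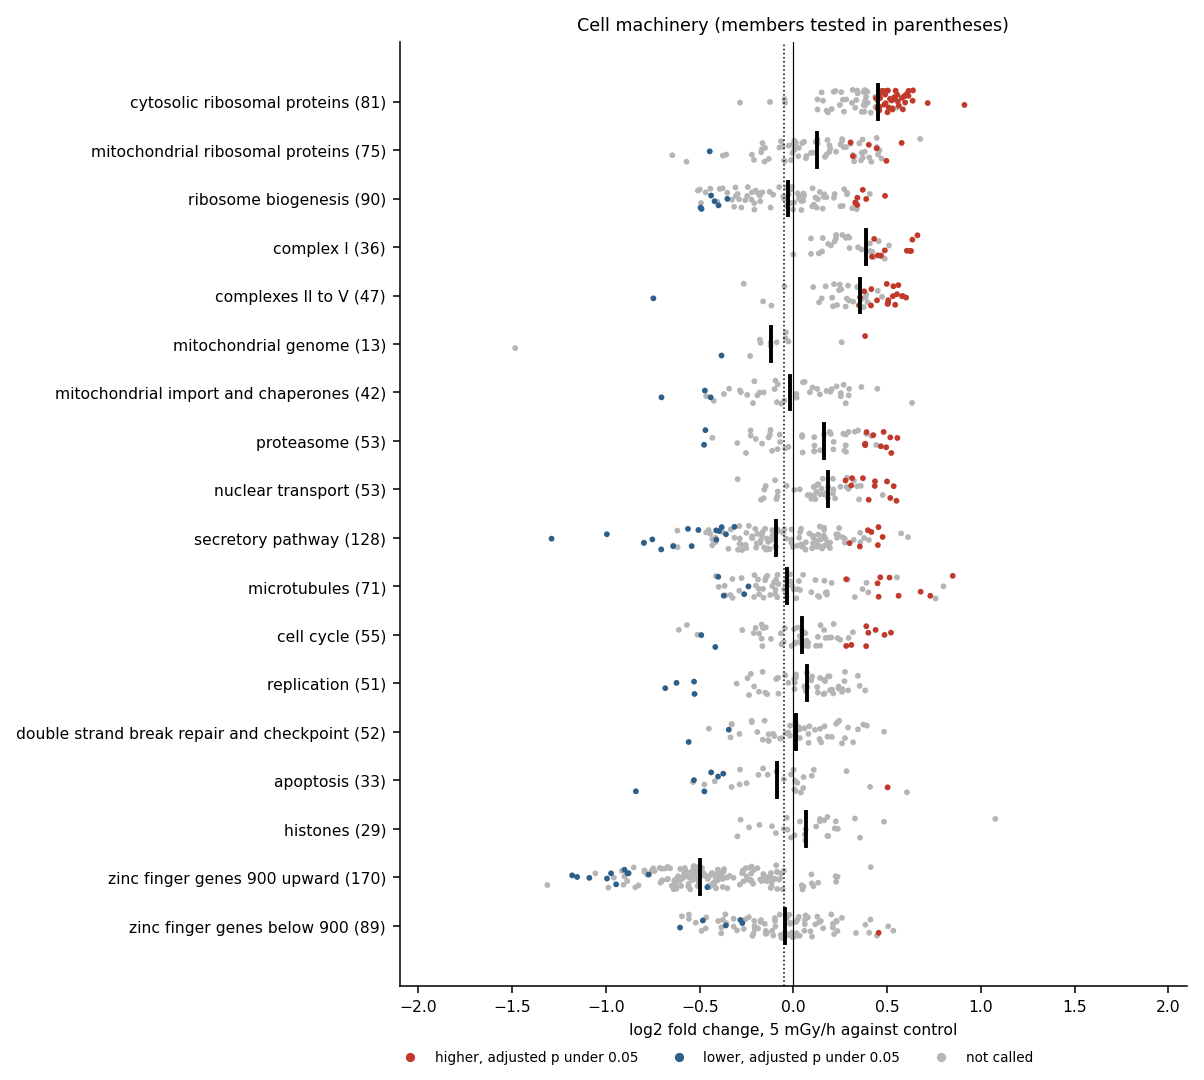
Log2 fold change of each tested member (points) of 18 lists of cell machinery, coloured by call, with list medians (black bars) and the median of all genes (dotted line). Cytosolic ribosomal proteins (0.45), complex I (0.39) and complexes II to V (0.36) lie to the right, zinc finger genes numbered from 900 upward (-0.50) to the left.

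Zinc finger genes numbered from 900 upward, many of which sit in repeated clusters of the fish genome, formed the list with the lowest median. Of 170 tested members 11 fell (6.47%, against 4.53% of all genes) and 11 lay above 0, with a median log2 fold change of -0.50. znf1127 was named above, and znf1098 (2.44 to 4.52 CPM against 3.51 to 8.05), znf1020 (2.46 to 4.38 against 2.63 to 7.94) and znf1117 fell by 0.77, 0.90 and 0.88 on the log2 scale. Exposed and control libraries were free of overlap for 1 of the 170, against 3.11% of all genes. Reads may be split among near-identical copies, so single members are uncertain. The mean log2 level was 1.08 to 1.59 in exposed libraries and 1.12 to 2.14 in controls, and control 4 (1.12) and control 2 (1.40) lay among the exposed. The count that fell ran from 1 without exposed 3 to 34 without control 4, 1 member was called in every fit, and the median stayed between -0.57 and -0.34. For zinc finger genes numbered below 900, most of which have a human counterpart, 1 of 89 rose, 5 fell and the median was -0.05.

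**Figure D5:**
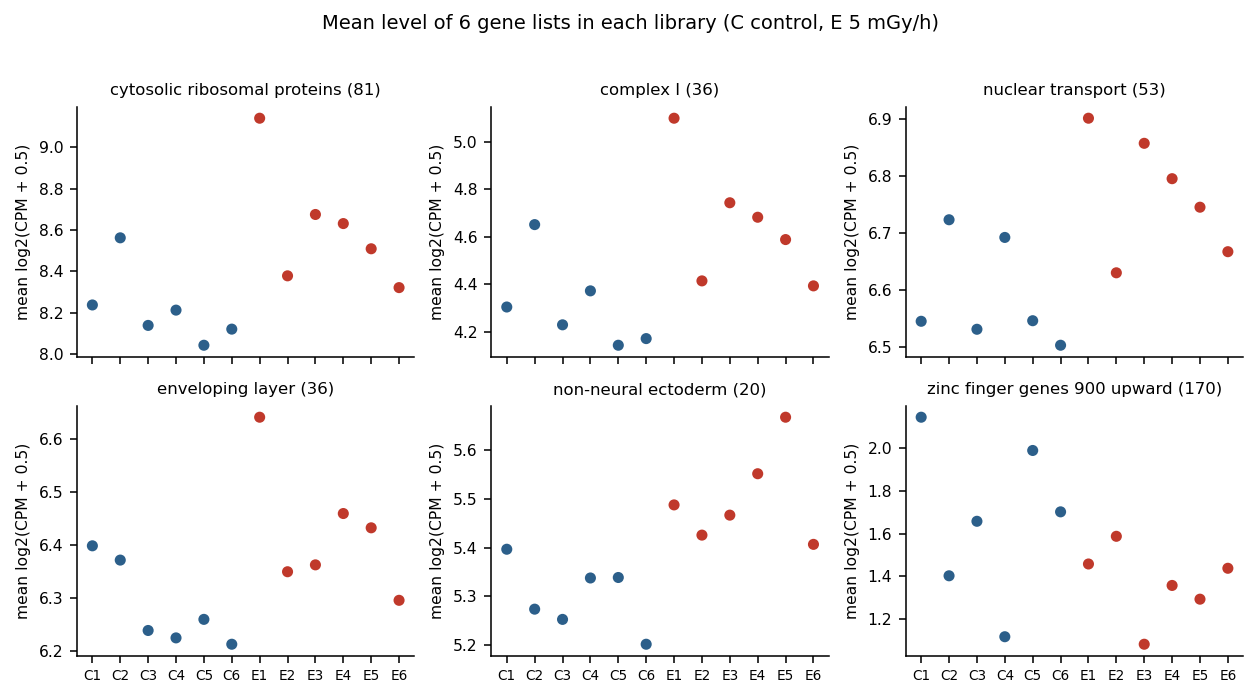
Mean log2(CPM + 0.5) over the tested members of 6 lists in each exposed and control library (points). For cytosolic ribosomal proteins control 2 (8.56) lies within the exposed range of 8.32 to 9.14, and for zinc finger genes from 900 upward controls 2 and 4 (1.40 and 1.12) lie within the exposed range of 1.08 to 1.59.

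Of 128 tested members of the secretory pathway 7 rose (5.47%, near the 4.57% of all genes) and 15 fell (11.7%, against 4.53%), with a median of -0.10. RAB6B and RAB43, Golgi GTPases, had log2 fold changes of -0.99 ± 0.20 and -0.64 ± 0.13, RAB6B at 2.83 to 5.39 CPM against 5.57 to 10.2. SEC23B, a coat protein of vesicles that leave the endoplasmic reticulum, rose by 0.42 ± 0.08, and SSR1, a translocon partner, by 0.45 ± 0.10. Among Rab GTPases, a family gathered after the values were seen, 2 of 70 rose (2.86%) and 7 fell (10%). Among 71 tested microtubule genes 9 rose (12.7%) and 4 fell (5.63%). The alpha tubulins tuba8l2 (37.8 to 71.5 CPM against 25.6 to 40.7, 0.73 ± 0.14), TUBA1A (0.68 ± 0.12) and tuba5 (0.56 ± 0.11) led them, with the mitotic motor KIF4A (0.46 ± 0.08), and of 9 alpha tubulins, also gathered afterwards, 6 rose. Near-identical tubulin paralogues can share reads. Of 55 tested members of the actin list 3 rose and 4 fell (5.45% and 7.27%, against 4.57% and 4.53% of all genes), with a median of -0.04. actc1a, named above, and actb1 (0.44 on the log2 scale) were among those that rose. TPM2, a tropomyosin, fell from 44.3 to 76.97 CPM in controls to 29.6 to 53.02 after exposure, and ARPC4 of the Arp2/3 complex fell by 0.38 on the log2 scale. The secretory count that fell ran from 2 without exposed 4 to 19 without exposed 2, and the microtubule count that rose from 4 to 12.

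Of 32 tested genes listed as targets of p53, 0 rose and 3 fell (9.38%, against 4.53% of all genes), with a median of -0.25. The count of these targets that fell ran from 0 without exposed 1 to 6 without exposed 2, and 0 were called in every fit. Of 52 tested genes of double strand break repair and checkpoints 2 fell (3.85%, against 4.53% of all genes). RAD50, of the complex that binds broken ends, and LIG4, the ligase of end joining, fell by 0.34 and 0.56 on the log2 scale, and the median was 0.02. In excision and mismatch repair APTX, which clears failed ligation ends, rose from 9.65 to 13.4 CPM in controls to 14.3 to 21.0 after exposure (0.63 ± 0.12), GTF2H1, a subunit of the repair and transcription factor TFIIH, rose by 0.40 ± 0.09, and NEIL1 and MSH3 fell, 4.88% of 41 tested genes in each direction.

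Of 33 apoptosis genes 1 rose and 6 fell (3.03% and 18.18%, against 4.57% and 4.53% of all genes). The apoptosis count that fell ran from 0 without exposed 3 to 7 without exposed 2, and 0 of these genes were called in every fit. The survival factor mcl1a rose by 0.50 ± 0.13, with a call kept in 6 of 12 fits with a library left out. Its paralogue mcl1b fell by 0.44 on the log2 scale. BAX, which opens the outer mitochondrial membrane, ranged from 39.5 to 56.5 CPM against 49.0 to 74.96 and fell by 0.37, in groups that overlapped. Of 51 replication genes 0 rose and 4 fell (7.84%), while the median of the list was 0.07. GINS1 of the helicase complex (5.92 to 10.4 CPM against 10.5 to 16.1, log2 fold change -0.68 ± 0.14) and geminin were among those that fell. So was UHRF1, which brings the maintenance DNA methyltransferase to the fork (-0.53 ± 0.13). The replication count that fell ran from 2 without exposed 3 to 5 without control 4, and 2 were called in every fit. Of 55 cell cycle genes 8 rose (14.55%) and 2 fell (3.64%). The mean log2 level of this list was 6.41 to 6.53, in the range of the highest quintile of expression, where 333 of 3003 genes rose. The mitotic kinase AURKB (0.52 ± 0.12), the checkpoint protein BUB3 (0.49 ± 0.11) and the spindle protein TPX2 (0.39 ± 0.09) were among those that rose. The repressor E2F7 (-0.49 ± 0.12) was among those that fell. AURKB kept its call in 8 of 12 fits with a library left out. The cell cycle count that rose ran from 1 without exposed 3 to 11 without exposed 2, and 1 was called in every fit. No histone gene (29 tested, 6 at an unadjusted p under 0.05, 1 with DESeq2) and no gene of interferon and innate immunity (15 tested, 2 at an unadjusted p under 0.05, 0 with DESeq2) was called by edgeR's quasi-likelihood test.

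The change was compared with that at 0.5 mGy/h, measured in batch I32 with its own 6 controls, to see which effects differ between the dose rates. The dose rates and the batches cannot be told apart in this comparison. The difference of the effects, as an interaction over 24 libraries, was called for 3274 of 15770 genes (20.8%), 1530 with a higher effect at 5 mGy/h (9.7%) and 1744 with a lower one (11.1%). The count was 2133 without exposed 3, 2156 without control 1 and 2009 without control 2 of batch I32, and it stayed within 1.5 times of 3274 without any other library. Of the 24 DEG named first above, which have a symbol and no overlap between groups, 21 were among them. These 24 were chosen by the same I30 libraries that enter the difference, so their share cannot be set against that of all genes. MDK had a log2 fold change of 1.56 at 5 and of 0.28 at 0.5 mGy/h, a difference of 1.31 (adjusted p = 0.00211), OTX2 of 1.01 and 0.06, and DLX3 of 1.47 and 0.18. cd99 had values of -0.88 and 0.59 and znf1127 of -1.18 and 0.68, in opposite directions. For apoa1b the values were 0.66 and 0.65, a difference of 0.05 (adjusted p = 0.886).

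The median log2 fold change of cytosolic ribosomal proteins was 0.45 at 5 and -0.05 at 0.5 mGy/h, and the difference was called higher at 5 mGy/h for 43 of 81 members and lower for 2. For complex I the medians were 0.39 and -0.06, with 15 of 36 higher, and for nuclear transport 0.18 and -0.16, with 25 of 53 higher. Zinc finger genes from 900 upward had medians of -0.50 and 0.73, and 99 of 170 had a lower effect at 5 mGy/h. Among tissues, the enveloping layer had 13 of 36 members with a higher and 5 with a lower effect, at medians of 0.13 and -0.03, and non-neural ectoderm 6 of 20 with a higher and 2 with a lower one, at medians of 0.22 and 0.04.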

How the data were processed

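The authors prepared stranded libraries of polyadenylated RNA, trimmed the read pairs with TrimGalore and aligned them with STAR to GRCz11 with an Ensembl annotation. The deposited tables hold raw counts of uniquely aligned pairs per gene, 1 table per library. Which of their count columns the authors used is not given in the sources used here. The column for reverse-stranded libraries (column 4 of the tables) was used here, and the unstranded column (column 2) as an alternative. Rows that name no gene were left out of library sizes and tests; pairs without a gene made up 6.1% to 8.97% of the uniquely mapped pairs. The study set aside controls 1 and 2 and exposed 2 and 6 as potential outliers, and they were kept here.

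Genes were tested with edgeR 4.0.16 in R 4.3.3 (filterByExpr at its defaults, min.count 10 and min.total.count 15, TMM normalisation, quasi-likelihood test of 6 against 6 libraries, two-sided, Benjamini-Hochberg adjustment over 15015 genes). CPM used the normalised library sizes and is not scaled by gene length. Levels of lists are means of log2(CPM + 0.5). DESeq2 1.42.0 and limma 3.58.1 (voom with quality weights) served as alternatives, and library measures were compared by exact permutation tests (scipy 1.17.1). The scripts were tested on simulated data. No pair of libraries of a group agreed within sampling noise (chi-square per degree of freedom 4.12 to 74.2 over 30 pairs), so each counted as 1 replicate.

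The comparison and its 77 gene lists were chosen with earlier results of these data known. Symbols came from a table of Ensembl identifiers, written in capitals where it does so; of the symbols asked for in lists 1736 matched, 108 did not, and 95 were ambiguous and left out. Kinases and binding partners whose symbols resemble ribosomal proteins or initiation factors were removed from those lists. Genes were named by a rule: the 12 DEG with the highest and the 12 with the lowest fold change that have a symbol and no overlap between groups, the called members of each list with the 4 lowest adjusted p, the first 2 tested members of a list with no call, and the extremes of called members for families given by a pattern, 258 genes in all. Exceptions are marked as chosen after their values were seen. Alternatives were RLE size factors, no filter, a filter of 1 CPM in 6 libraries, unstranded counts, libraries thinned to 9845688 reads, a replicate block, all 4 batches in one fit, the 8 libraries kept by the study, and each library left out. Lists that the text does not name, and some genes, are not reported here.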

Additional observations from a re-analysis of the deposited data

Results flagged for a closer look

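Among the named genes 29 of 516 groups of 6 libraries (5.62%) held a library far from the other 5, where chance gives about 1 in 20. Of these, 15 were control 2. It was the highest control for RPS9 (779.9 CPM), rps3 (808.0), RPL10A (574.6), NDUFA6 (24.28), UQCRQ (45.22), cox6a1 (71.81), mrpl42 (27.41), EIF2B2 (5.756), tuba5 (214.1), slc22a5 (197.2), PAICS (388.7) and USP8 (58.76), and the lowest for ZNF622 (46.54), MT-CO2 (2288) and vent (56.24). Control 6 was the highest control for foxc1b (0.9877), cndp1 (1.729), cdx1a (27.74) and WDR12 (69.8) and the lowest for dlb (3.292). Single flags among the controls were SPARC in control 4 (0.6071), tfa in control 1 (55.02) and lft1 in control 3 (42.99). Among the exposed libraries, exposed 1 was high for MRPS17 (14.48) and IARS1 (80.07), exposed 2 for DDX4 (236.1) and MAP1LC3B (167.4) and exposed 5 for NID1 (ENSDARG00000103129, 140.3), and exposed 3 was low for STK3 (20.42).

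The effect differed between 5 and 0.5 mGy/h for 21 of the 24 DEG named first, which have a symbol and no overlap between groups (interaction test of edgeR, adjusted p under 0.05). The 24 were chosen by the same libraries at 5 mGy/h and their controls, so this share has no weight as a test. The differences (log2 fold change at 5 minus that at 0.5 mGy/h) were 1.311 for MDK (ENSDARG00000020708), 1.324 for DLX3, 1.306 for actc1a, 1.191 for DBX1, 1.007 for msx1a, 0.9894 for OTX2, 0.8865 for cndp1, 0.7925 for tbx6, 0.7034 for PCDH10 (ENSDARG00000102824) and 0.5949 for tm6sf2a. On the lower side they were -2.488 for fut9b.5, -1.831 for znf1127, -1.569 for SYCP1, -1.446 for cd99, -1.387 for FGF4, -1.004 for UBLCP1, -0.8976 for NLRX1, -0.8523 for inka1a, -0.8287 for si:dkey-68o6.5, -0.6387 for si:dkey-182g1.8 and -0.5773 for mob1bb. SEMA3F, ptpro and sebox were not called in this test. Each difference spans 2 irradiation batches, and dose rate and batch cannot be told apart in it.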

How the results depend on the processing

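No named gene reversed its direction in an alternative run that tested it, where it was called in the main or the alternative fit. Against 80 DEG and 1366 genes at adjusted p under 0.05, the 8 libraries without controls 1 and 2 and exposed 2 and 6 gave 1158 and 3690, DESeq2 265 and 2249, limma-voom with quality weights 306 and 2828, and a fit of all 4 batches 144 and 1438. Testing without a filter gave 142 DEG and 1328 genes. Of the 80 DEG, 77 were among those of the 8 libraries and 72 among those of DESeq2. RLE size factors (91 and 1384), a filter of 1 CPM (73 and 1478), unstranded counts (79 and 1355) and thinned libraries (68 and 1364) stayed within 1.5 times. Leaving out 1 library gave 12 to 250 DEG, 297 to 2428 genes at adjusted p under 0.05 and 2009 to 4054 genes whose effect differed from 0.5 mGy/h. The median of the enveloping layer list was 0.29 with the 8 libraries against 0.13. With the same 8 the median was 0.69 for cytosolic ribosomal proteins (0.45 with all 12), 0.58 for complex I (0.39), 0.55 for complexes II to V (0.36) and 0.23 for the Wnt list (0.15), and without exposed 1 it was 0.33, 0.26, 0.25 and 0.13. A replicate block left 7 DEG and 626 genes called. Deviations of same-numbered exposed and control libraries correlated at 0.179, -0.353, 0.0637, -0.0127, 0.117 and 0.206, so the numbers were not taken to pair the libraries. The cause of these shifts was not tested. Controls had fewer reads than exposed libraries, which limits the precision for genes of a few CPM, and lists of low genes are the least certain.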

Other observations

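BHMT, which remethylates homocysteine to methionine, ranged from 43.1 to 62.7 CPM against 27.4 to 44.5 (0.59 ± 0.12, adjusted p = 0.0126, edgeR's quasi-likelihood test), and in the same cycle MTAP, of the salvage branch, ranged from 10.98 to 15.76 against 15.84 to 23.4 (-0.65 ± 0.12). SLC16A10, a transporter of aromatic amino acids, rose from 54.5 to 71.3 CPM in controls to 74.6 to 96.98 after exposure, and HSPA5, the main chaperone of the endoplasmic reticulum, from 211 to 257 CPM to 254 to 411. CRY2, a cryptochrome, ranged from 15.4 to 23.0 CPM against 22.6 to 31.4, a log2 fold change of -0.58 ± 0.12. KMT2E, of the Trithorax group, rose by 0.47 ± 0.08 on the log2 scale and KAT2B, a histone acetyltransferase, fell by 1.05.

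Families gathered by symbol after the values were seen gave descriptions only. Of 22 nucleoporins 9 rose, with a median log2 fold change of 0.30, of 30 mediator subunits 4 rose (0.21) and of 16 integrator subunits 4 rose (0.21). Of 59 coiled-coil domain genes 1 rose and 8 fell (-0.21), and of 12 chmp genes, of the membrane-scission machinery, 3 fell (-0.19). Genes known by a clone name starting with si: numbered 1362, of which 21 rose (1.54%) and 53 fell (3.89%). Both shares were below those of all genes (4.57% and 4.53%), while the median was -0.14 against -0.05 for all genes.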
